A study of Rattus norvegicus with 40 samples.

Results

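Coagulation factors and their inhibitors were followed in rat liver after exposure to the dioxin TCDD, a ligand of the aryl hydrocarbon receptor (AHR). The 9 genes considered were F2, F5, F7, F9, F10, Cpb2, Serpinc1, Proc and Plg, and their members on the array were taken as every probe set whose platform symbol was one of these names. For 6 of the 9 genes a probe set was found, 1 each, among 10411 genes measured: F2 (1368442_at), F5 (1374320_at), F10 (1369852_at), Cpb2 (1369206_at), Proc (1369286_at) and Plg (1368360_at). F7, F9 and Serpinc1 were not analysed here.

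Affymetrix RAE230A arrays held liver RNA of 40 single male rats aged 10 to 12 weeks, 4 in each of 10 groups. The dioxin-sensitive strain L-E and line LnC carry wildtype AHR, whereas in the dioxin-resistant line LnA and strain H/W the receptor lacks part of its transactivation domain. LnC and LnA were bred from crosses of L-E and H/W. Each strain or line was examined 19 hours after a gavage of TCDD at 100 μg/kg or of the corn oil vehicle, and L-E and H/W also 3 hours after TCDD, with no corn oil group at 3 hours. A cage held all 4 rats of a treatment group, so cage and treatment cannot be told apart, and L-E and H/W rats differ in more than the AHR.

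The liver makes most circulating clotting factors. In the common pathway, activated factor X (F10), with activated factor V (F5) as its cofactor, converts prothrombin (F2) to thrombin, which cleaves fibrinogen to fibrin. Protein C (Proc) in its active form cleaves activated factor V and so restrains thrombin formation. Plasminogen (Plg), once activated, dissolves fibrin, and the carboxypeptidase encoded by Cpb2, known as thrombin-activatable fibrinolysis inhibitor, trims fibrin so that less plasminogen binds to it.

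RefSeq upstream sequences of the assembly GRCr8 were at hand for 5 of the 6 measured genes. Cpb2 was the gene without one, so it was not searched and the motif counts below say nothing of it. They come from the reference assembly and not from these strains and lines. The 250 bases before the annotated start are shown for F5 and F10, the genes that differed most between corn oil rats of the strains below, in lower case as neither motif searched was found in them.
F5 (chr13:79046407-79046656, plus strand): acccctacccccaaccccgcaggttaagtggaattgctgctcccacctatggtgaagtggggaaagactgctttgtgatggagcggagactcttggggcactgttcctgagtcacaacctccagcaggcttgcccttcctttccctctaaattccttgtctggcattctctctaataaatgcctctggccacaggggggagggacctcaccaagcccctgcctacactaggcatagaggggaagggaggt
F10 (chr16:83190281-83190530, minus strand): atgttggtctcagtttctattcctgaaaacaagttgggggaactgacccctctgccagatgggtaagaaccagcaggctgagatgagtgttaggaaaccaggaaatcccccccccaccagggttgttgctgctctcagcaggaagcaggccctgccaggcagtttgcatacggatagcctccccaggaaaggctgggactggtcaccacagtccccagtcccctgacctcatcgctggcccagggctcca
The core of the AHR response element, GCGTG, was in none of the 5 windows on either strand, and in 25.9% of the 33469 promoter windows of the same length. The core of the site bound by the hepatic factor HNF1, GTTAAT, was in 3 of the 5 windows (F2, Proc and Plg) and in 6.45% of all windows. The 41 bases around it are given for these 3 genes, with capitals for the motif, which reads ATTAAC on the gene's strand.
F2 (chr3:98065261-98065301, minus strand): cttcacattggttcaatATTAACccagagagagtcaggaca
Proc (chr18:24048956-24048996, minus strand): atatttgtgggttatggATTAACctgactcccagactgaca
Plg (chr1:50915450-50915490, minus strand): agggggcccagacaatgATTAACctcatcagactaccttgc
In F2 and Proc the match began 38 bases before the start, and in Plg 67 bases before it. A match in these letters is a description and not evidence of binding.

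Values are log2 signals, so that a difference of 1 is a doubling. All 6 genes were far above the array medians: their values lay between 10.31 and 14.50 on the 40 arrays, against array medians of 3.52 to 3.76. Among 6 AHR-inducible check genes, all 6 were higher after TCDD in L-E, LnC and LnA rats, and 5 of 6 in H/W rats, where Cyp1a1 missed the threshold (adjusted p = 0.0142, limma). After TCDD no strain or line had a call among 9 hepatocyte markers (2 to 3 with an unadjusted p under 0.05 in each, limma), 9 endothelial and stellate markers (0 to 4), 4 bile duct markers (0 to 1) or 3 platelet markers (0). Of all genes 0.423% (H/W) to 2.06% (L-E) were called. An unadjusted p of 0.062 or less, a wider cutoff than 0.05, was held by 2167 of 10411 genes in L-E, and of 0.04971 or less by 1258 in H/W. Ppbp and Itga2b, made by platelets and their precursors, lay below every array's median at 19 hours. In whole liver, fewer cells of a type and less RNA per cell cannot be told apart.

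Cpb2 rose in L-E rats, and it had the largest difference of the 6 genes in both sensitive groups. In L-E livers its log2 signals were 13.20, 13.16, 13.24 and 13.06 after TCDD, against 12.44, 12.56, 12.64 and 12.55 after corn oil. Every TCDD-treated L-E rat lay above every corn oil rat. The difference was 0.62 on the log2 scale (SE 0.05, n = 4 per group), a 1.53-fold increase that passed the threshold of an adjusted p under 0.01 (adjusted p = 0.00176, limma with Benjamini-Hochberg adjustment over all 10411 genes). Among the 6 genes it was the only one called in L-E rats, where 2.06% of all genes were called. The difference was 0.76 within the first scan day (1 array per group) and 0.57 within the second (3 per group). With replicate numbers as a block the call was lost (adjusted p = 0.0184).

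In LnC livers, the other sensitive group, Cpb2 signals were 13.37, 12.94, 13.18 and 13.04 after TCDD, against 12.54, 12.71, 12.84 and 12.57 after corn oil. The groups did not overlap here either. The difference of 0.47 (SE 0.11, 95% interval 0.22 to 0.72) did not pass the threshold after adjustment (adjusted p = 0.0664, limma), although it did in a single fit over the 8 groups at 19 hours, which shares the spread of all strains (adjusted p = 2.17e-04).

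The resistant animals gave smaller Cpb2 differences. In LnA livers the signals were 12.52, 12.56, 12.61 and 12.38 after TCDD, against 12.65, 12.42, 12.57 and 12.48 after corn oil. These groups overlapped throughout, with a difference of -0.01 (95% interval -0.17 to 0.15, adjusted p = 0.948, limma). In H/W livers the signals were 12.26, 12.16, 12.35 and 12.31 after TCDD, against 12.07, 12.18, 12.09 and 12.21 after corn oil. The 2 groups overlapped, and the difference was 0.13 (95% interval 0.00 to 0.26, adjusted p = 0.411, limma).

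**Figure D1:**
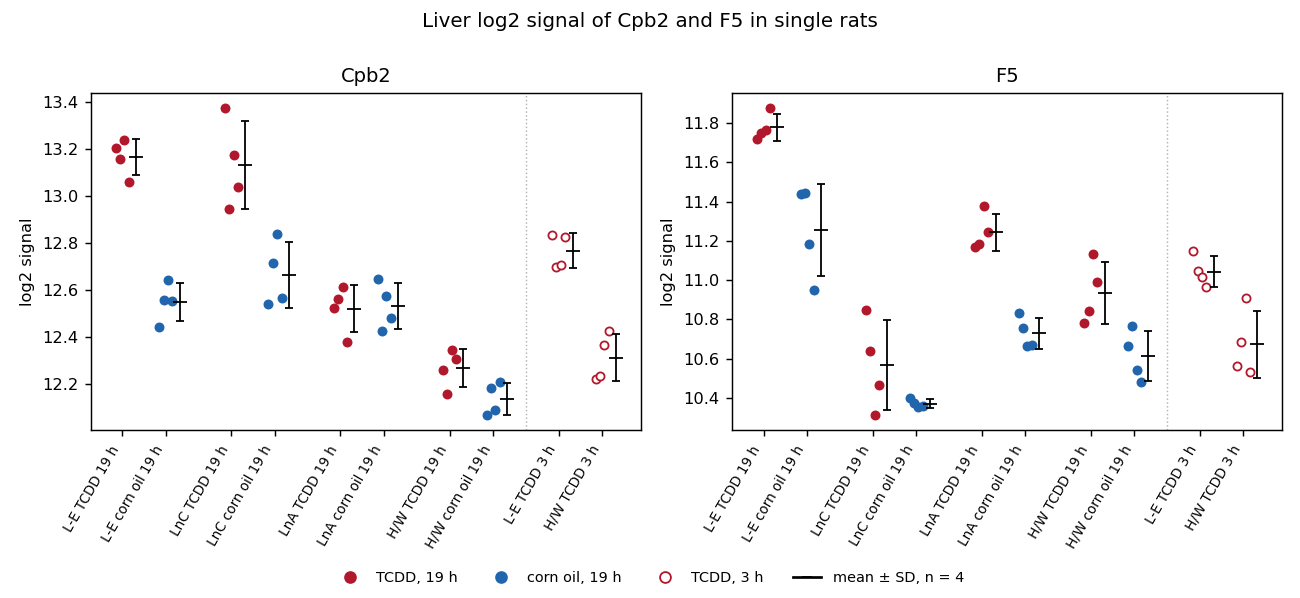
Log2 signal of Cpb2 (left) and F5 (right) in each rat, by strain or line, treatment and time, with filled points for 19 hours, open points for 3 hours and bars for the mean and SD (n = 4). In Cpb2 the TCDD points of L-E and LnC at 19 hours lie above their corn oil points, while those of LnA and H/W overlap them. In F5 the TCDD points at 19 hours lie above the corn oil points in L-E, LnA and H/W.

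Whether the Cpb2 response differed between sensitive and resistant rats was tested directly in these 4 strains and lines. The p-values rest on the spread of rats within groups and do not measure the spread between strains or lines. Over both pairs, the response in the sensitive collective (L-E and LnC) exceeded that in the resistant collective (LnA and H/W) by 0.48 on the log2 scale (SE 0.08, 95% interval 0.32 to 0.64, adjusted p = 0.00205, limma). Only 10 of 10411 genes, 0.0961%, were called in this test, and Cpb2 ranked 7 of 10411 by p. The other 5 coagulation genes differed between the collectives by -0.08 to 0.06, and none was called. The excess of Cpb2 was alike in size in both pairs, 0.49 for L-E over H/W (SE 0.08, adjusted p = 0.0422) and 0.48 for LnC over LnA (SE 0.13, adjusted p = 0.622), but neither pair alone passed the threshold in limma. Across all genes 0.0384% and 0.0768% passed in these tests. The call over both pairs ended when arrays were centred on their medians (difference 0.43, adjusted p = 0.0170) and with replicate numbers as a block (adjusted p = 0.0404), while it held with each of the 32 arrays left out in turn (adjusted p 7.44e-04 to 0.00552).

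F5, the cofactor of activated factor X, was called in a resistant line and not in the other groups. In LnA livers its signals were 11.17, 11.18, 11.38 and 11.25 after TCDD, against 10.83, 10.75, 10.67 and 10.67 after corn oil. All 4 TCDD rats lay above all corn oil rats, by a mean of 0.51 (SE 0.06, 1.43-fold, adjusted p = 0.00674, limma). F5 was the only one of the 6 genes called in LnA rats, against 1.09% of all genes. With replicate numbers as a block the call was lost (adjusted p = 0.0543), and it was also lost whichever of the 8 arrays was left out (adjusted p 0.0105 to 0.0266).

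In L-E livers F5 signals were 11.72, 11.75, 11.77 and 11.88 after TCDD, against 11.44, 11.45, 11.19 and 10.95 after corn oil. The groups did not overlap and the difference of 0.52 (SE 0.11, 1.44-fold) was as large as in LnA, but the spread of the corn oil rats was wider and the threshold was missed (adjusted p = 0.0412, limma). In the single fit over 8 groups it was called (adjusted p = 7.96e-04). Within the first scan day the L-E difference was 0.28, from 1 array per group, and within the second it was 0.60.

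In H/W livers F5 signals were 10.78, 10.84, 11.13 and 10.99 after TCDD, against 10.67, 10.77, 10.54 and 10.48 after corn oil. The lowest TCDD rat lay just above the highest corn oil rat, and the difference was 0.32 (95% interval 0.10 to 0.54, adjusted p = 0.198, limma). In LnC livers, which had the lowest F5 signals, values were 10.85, 10.64, 10.31 and 10.46 after TCDD, against 10.40, 10.37, 10.35 and 10.36 after corn oil. There the groups overlapped, and the difference was 0.19 (95% interval -0.06 to 0.44, adjusted p = 0.510, limma). The F5 response of the sensitive collective was not distinguishable from that of the resistant collective (difference -0.06, 95% interval -0.27 to 0.15, adjusted p = 0.769, limma). This mean joins pairs of opposite sign. L-E exceeded H/W by 0.20 (95% interval -0.13 to 0.53, adjusted p = 0.577), while LnC minus LnA was -0.32 (95% interval -0.59 to -0.05, adjusted p = 0.905), neither called.

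**Figure D2:**
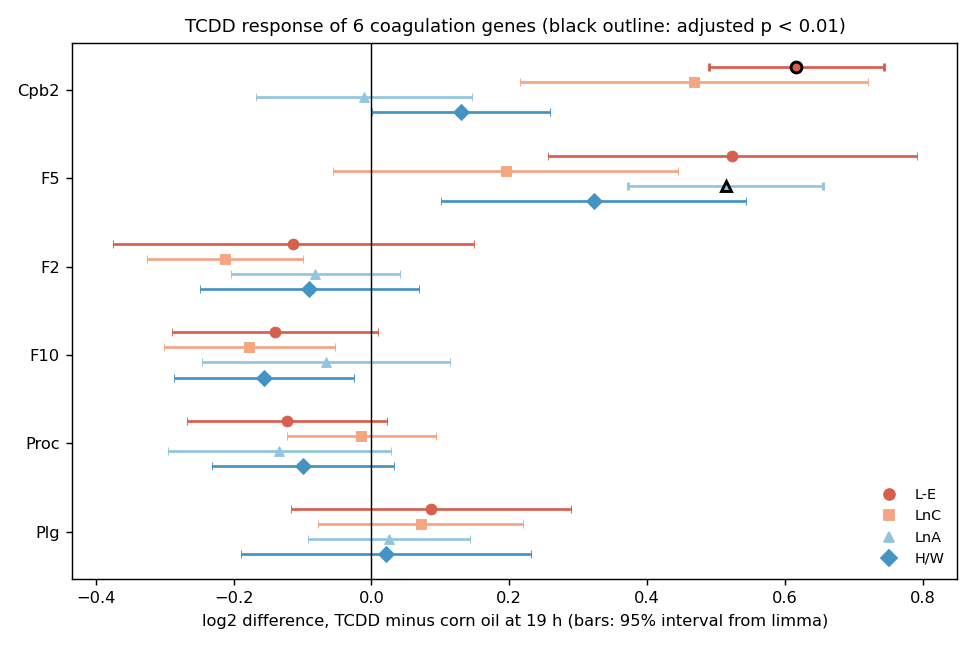
Log2 difference, TCDD minus corn oil at 19 hours, of the 6 genes in L-E, LnC, LnA and H/W livers, with 95% intervals from limma and black outlines for adjusted p under 0.01. Cpb2 in L-E (0.62) and F5 in LnA (0.51) are the outlined points, and F2, F10, Proc and Plg lie between -0.21 and 0.09 in every strain and line.

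The remaining 4 genes had small differences after TCDD, and none was called in any strain or line. F2, which encodes prothrombin, had its largest difference in LnC livers, with 13.93, 13.98, 13.92 and 13.82 after TCDD against 14.06, 14.15, 14.07 and 14.22 after corn oil. These groups did not overlap, but the difference of -0.21 (SE 0.05, 95% interval -0.33 to -0.10) missed the threshold (adjusted p = 0.0632, limma). In the other strains the F2 difference was -0.11 in L-E, -0.08 in LnA and -0.09 in H/W (adjusted p 0.609 to 0.683).

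F10 differed by -0.14 (L-E), -0.18 (LnC), -0.16 (H/W) and -0.07 (LnA), with adjusted p of 0.145 to 0.898 (limma) and overlapping groups in each. Proc differences ran from -0.13 in LnA to -0.01 in LnC livers, and Plg differences from 0.02 in H/W to 0.09 in L-E livers. The intervals bound what these arrays could have missed: for Proc the lowest limit was -0.30, in LnA, and for Plg the highest was 0.29, in L-E.

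No member was called in LnC or H/W rats, where 1.13% and 0.423% of all genes were, although 3 of the 6 had an unadjusted p under 0.05 in each (limma). Of 10411 genes, 1258 had an unadjusted p of 0.04971 or less in H/W. In LnC 828 had one of 0.01159 or less and 2215 of 0.1085 or less, so the count under 0.05 lies between. Counted by groups that did not overlap, L-E rats had 2 of 6 genes (13.3% of all genes), LnC rats 2 of 6 (9.90%), LnA rats 1 of 6 (8.90%) and H/W rats 1 of 6 (8.08%).

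**Figure D3:**
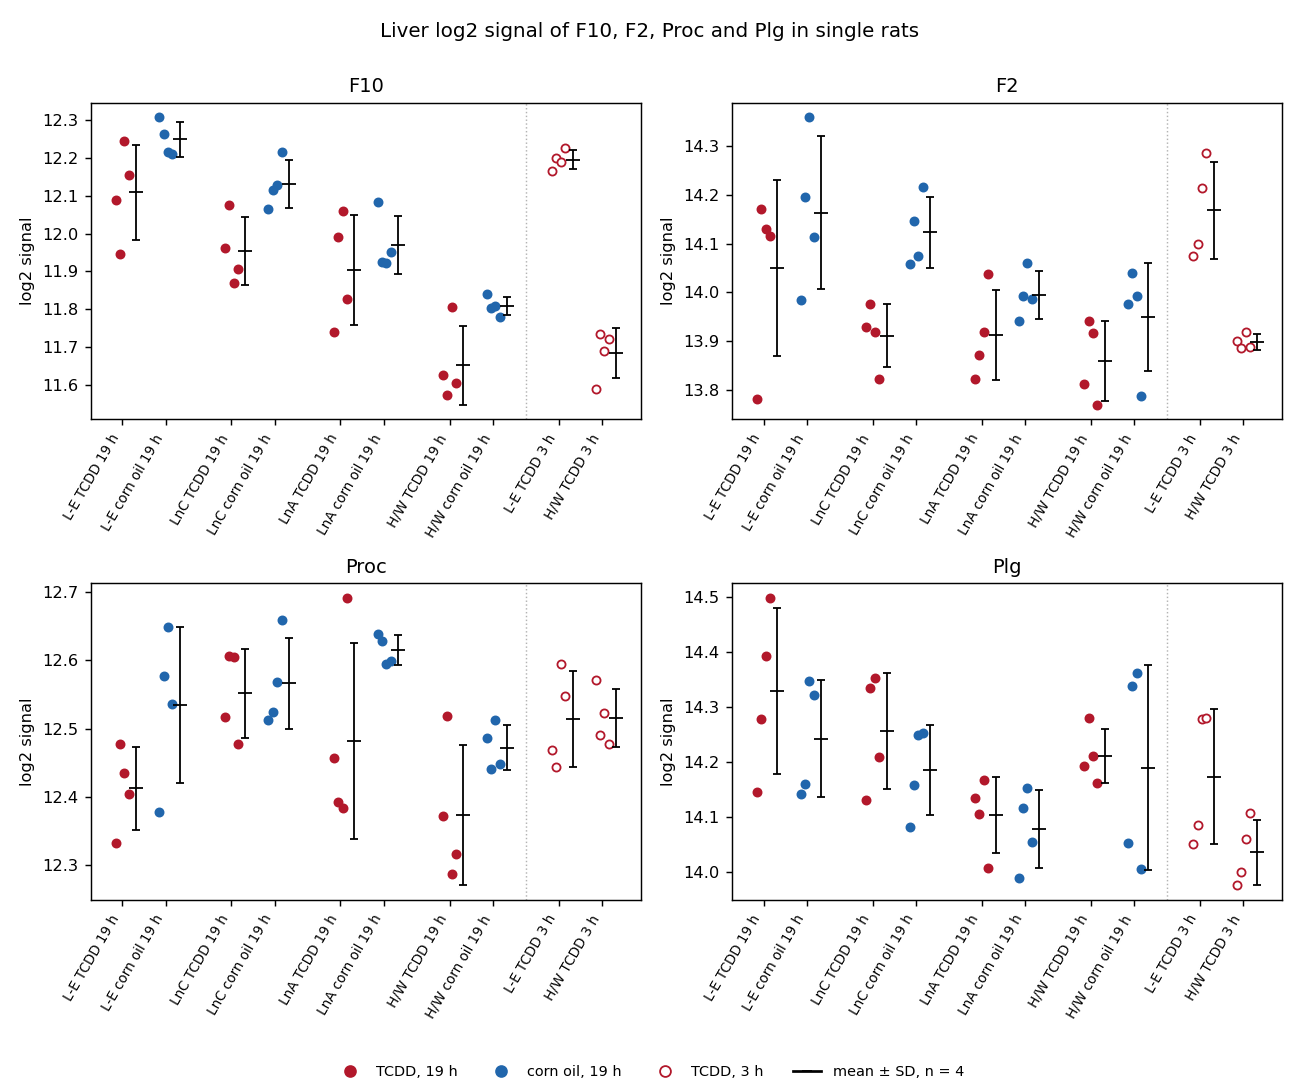
Log2 signal of F10, F2, Proc and Plg in each rat, drawn as for Cpb2 and F5, each panel with its own scale. F10 separates L-E from H/W at both times, at 12.16 to 12.23 against 11.59 to 11.74 after TCDD at 3 hours. At 19 hours the Proc and Plg points of TCDD and corn oil rats overlap in every strain and line. Some other groups do not overlap, such as Plg in H/W at 19 against 3 hours after TCDD.

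In corn oil rats, 3 genes differed between the strains L-E and H/W. F10, the protease that acts on prothrombin, had signals of 12.31, 12.26, 12.21 and 12.21 in L-E livers, against 11.84, 11.80, 11.81 and 11.78 in H/W livers. Without overlap, L-E exceeded H/W by 0.44 (SE 0.04, 1.36-fold, adjusted p = 4.44e-05, limma). F5 was higher in L-E by 0.64 (SE 0.10, 1.56-fold, adjusted p = 0.00232) and Cpb2 by 0.41 (SE 0.07, 1.33-fold, adjusted p = 0.00636), each from the corn oil values given above and again without overlap. Thus 3 of the 6 genes were called, all higher in L-E, against 0.999% of all genes, and 3 of 6 did not overlap, against 8.41%. Within the first and the second scan day, the differences were 0.47 and 0.42 for F10, 0.77 and 0.54 for F5, and 0.37 and 0.45 for Cpb2. With scan day as a block the call for Cpb2 was lost (adjusted p = 0.0129), as under 3 other alternatives (adjusted p 0.0147 to 0.0183). It held in 7 of 16 fits with 1 array left out (adjusted p up to 0.0241). These fits included the corn oil arrays of LnC and LnA, which enter only the spread. Leaving out any H/W array, or L-E replicate 2, 3 or 4, ended the call, so most fits that kept it left out an array of a line. F2 was higher in L-E by 0.21 (adjusted p = 0.164), Proc by 0.06 and Plg by 0.05, none of them called.

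Between the lines the F5 difference had the opposite sign. Corn oil LnC rats, although sensitive like L-E, had F5 signals of 10.35 to 10.40, against 10.67 to 10.83 in corn oil LnA rats, a difference of -0.36 (SE 0.10, 95% interval -0.56 to -0.15, adjusted p = 0.113, limma). The difference between the 2 contrasts, tested after the values had been seen, was 1.002 on the log2 scale (SE 0.14, adjusted p = 0.00160), where 0.624% of all genes were called. It held with each of the 16 arrays left out (adjusted p 1.78e-04 to 0.00555). F10 was higher in LnC than in LnA by 0.16 (adjusted p = 0.105) and Cpb2 by 0.13 (adjusted p = 0.644). None of the 6 genes was called between the lines, against 0.394% of all genes, with 2 of 6 at an unadjusted p under 0.05, and 1 of 6 did not overlap, against 5.68%. Over all genes, 1234 of 10411 had an unadjusted p of 0.07633 or less there (limma), a wider cutoff than 0.05. The lines were scanned on 1 day and the strains on others, so that a comparison of a line with a strain and scan day cannot be told apart.

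The F5 levels of the 10 groups spread over 1.41 log2 units, more than those of F2, which spread over 0.31. They were highest in L-E rats 19 hours after TCDD (11.78 ± 0.07, SD, n = 4) and lowest in corn oil LnC rats (10.37 ± 0.02). Next to the top came corn oil L-E (11.26 ± 0.24) and TCDD-treated LnA rats (11.24 ± 0.10), whose values overlapped. For Cpb2, L-E (13.16 ± 0.08) and LnC (13.13 ± 0.19) rats 19 hours after TCDD stood at the top and overlapped with each other. L-E rats 3 hours after TCDD (12.77 ± 0.07) came next, below the lowest of both, and overlapped corn oil LnC rats (12.66 ± 0.14). Corn oil L-E rats (12.55 ± 0.08) and both LnA groups (12.52 ± 0.10 after TCDD and 12.53 ± 0.10 after corn oil) were not distinguishable by their ranges. H/W rats held the 3 lowest means, 12.31 ± 0.10 at 3 hours and 12.27 ± 0.08 at 19 hours after TCDD, and 12.14 ± 0.07 after corn oil.

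At 3 hours after TCDD, L-E and H/W livers already stood apart for some of the genes. F10 signals were 12.16, 12.20, 12.19 and 12.23 in L-E livers, against 11.59, 11.74, 11.69 and 11.72 in H/W livers (difference 0.51, SE 0.04, 1.42-fold, adjusted p = 7.68e-04, limma). Cpb2 signals were 12.84, 12.70, 12.71 and 12.83 in L-E, against 12.22, 12.24, 12.37 and 12.43 in H/W livers (difference 0.46, SE 0.06, adjusted p = 0.00697). Neither pair of groups overlapped. The Cpb2 call was lost with any of the 8 arrays left out (adjusted p 0.0101 to 0.0213). These 2 of 6 genes compare with 2.18% of all genes called, and 4 of 6 did not overlap, against 32.5% of all genes. F5 was higher in L-E by 0.37 (adjusted p = 0.0502) and F2 by 0.27 (adjusted p = 0.0214). Without a vehicle group at 3 hours these differences hold both strain and TCDD, and both F10 and Cpb2 also differed between the corn oil rats.

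The later time was set against the earlier one in TCDD-treated rats of the same strain. In L-E livers, F5 was higher at 19 hours, with 11.72 to 11.88, than at 3 hours, with 11.15, 11.04, 11.02 and 10.96 (difference 0.74, SE 0.05, 1.66-fold, adjusted p = 5.82e-04, limma). Cpb2 was also higher at 19 hours, by 0.40 (SE 0.05, 1.32-fold, adjusted p = 0.00454), although 7 of the 8 fits with 1 array left out lost this call (adjusted p 0.00622 to 0.0160). For both genes the times did not overlap. In H/W livers F5 signals at 3 hours were 10.56, 10.69, 10.91 and 10.53, overlapping those at 19 hours (difference 0.26, adjusted p = 0.191), and the Cpb2 difference was -0.04 (adjusted p = 0.594). Plg, the zymogen of plasmin, was higher at 19 hours in H/W livers by 0.17 (adjusted p = 0.0300, not called).

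Of the 6 genes, 2 were called between times in L-E, against 4.01% of all genes, and none in H/W, against 5.15%, where 3 had an unadjusted p under 0.05. In H/W, 2285 of 10411 genes had an unadjusted p of 0.04195 or less between times (limma). There was no overlap for 2 of 6 genes in L-E (18.9% of all genes) and 1 of 6 in H/W (17.8%). The time change of Cpb2 was 0.44 larger in L-E than in H/W (SE 0.08, adjusted p = 0.0448), and that of F5 0.47 larger (SE 0.12, adjusted p = 0.155), neither passing the threshold in this test, chosen after the values had been seen. In it 0.0576% of all genes were called. All 3-hour arrays shared a scan day that no 19-hour array had, so that time and scan day cannot be told apart.

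Genes whose signals followed Cpb2 or F5 most closely were found by Pearson correlation over the 32 arrays at 19 hours, which share groups and scan days. For Cpb2 they were Ackr3 (r = 0.85), Hypk (0.82), Snap23 (0.81), Ctsl (0.80) and Nudt18 (0.79). For F5 they were Mlxipl (0.84), Gstp1 (0.84), Chd1l (0.83), P2rx4 (0.82) and Mpzl1 (0.82). Among the coagulation genes themselves the highest r was that of F2 with F10, at 0.63. Cpb2 and F5 correlated at 0.29, and F5 with Proc at -0.41.

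The rest of the clotting and fibrinolytic system was read from 38 further genes, of which 26 were measured. After TCDD none of the 26 was called in L-E, LnC or H/W rats, against 2.06%, 1.13% and 0.423% of all genes. In these rats 7, 6 and 7 of the 26 had an unadjusted p under 0.05 (limma). Of 10411 genes, 1258 had a p of 0.04971 or less in H/W. The cutoffs at hand for the other groups are not 0.05. In L-E, 2167 genes had a p of 0.062 or less, so at most that many were under 0.05. In LnC, 828 had a p of 0.01159 or less and 2215 of 0.1085 or less, so the count under 0.05 lies between. LnA rats had 6 of the 26 under 0.05, and 1978 of all genes at 0.09215 or less. Against 1.09% of all genes in LnA rats, 1 of the 26 was higher and 1 lower. Their median differences were small, at -0.00 in L-E rats and 0.01 in LnC rats, beside 0.01 and 0.00 over all genes, and at -0.03 in LnA rats and -0.08 in H/W rats, beside -0.01 and -0.04 over all genes.

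Both genes called in LnA act with the vitamin K-dependent factors. Ggcx, the carboxylase that makes their calcium-binding residues, had signals of 9.59, 9.53, 9.56 and 9.67 after TCDD, against 9.08, 9.03, 9.14 and 8.82 after corn oil. The difference was 0.57 (SE 0.07, 1.48-fold, adjusted p = 0.00806, limma), with no overlap. In the other groups Ggcx differed by 0.47 in L-E, 0.41 in LnC and 0.68 in H/W, with adjusted p of 0.122, 0.0982 and 0.101. Pros1, which encodes protein S, the cofactor of activated protein C, was at 10.09, 10.16, 10.25 and 10.07 after TCDD, against 10.57, 10.60, 10.58 and 10.57 after corn oil. It fell by 0.44 (SE 0.04, adjusted p = 0.00325). In L-E, LnC and H/W livers Pros1 differed by -0.50, -0.38 and -0.31, without overlap in any, and missed the threshold (adjusted p 0.0405, 0.0296 and 0.172).

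**Figure D4:**
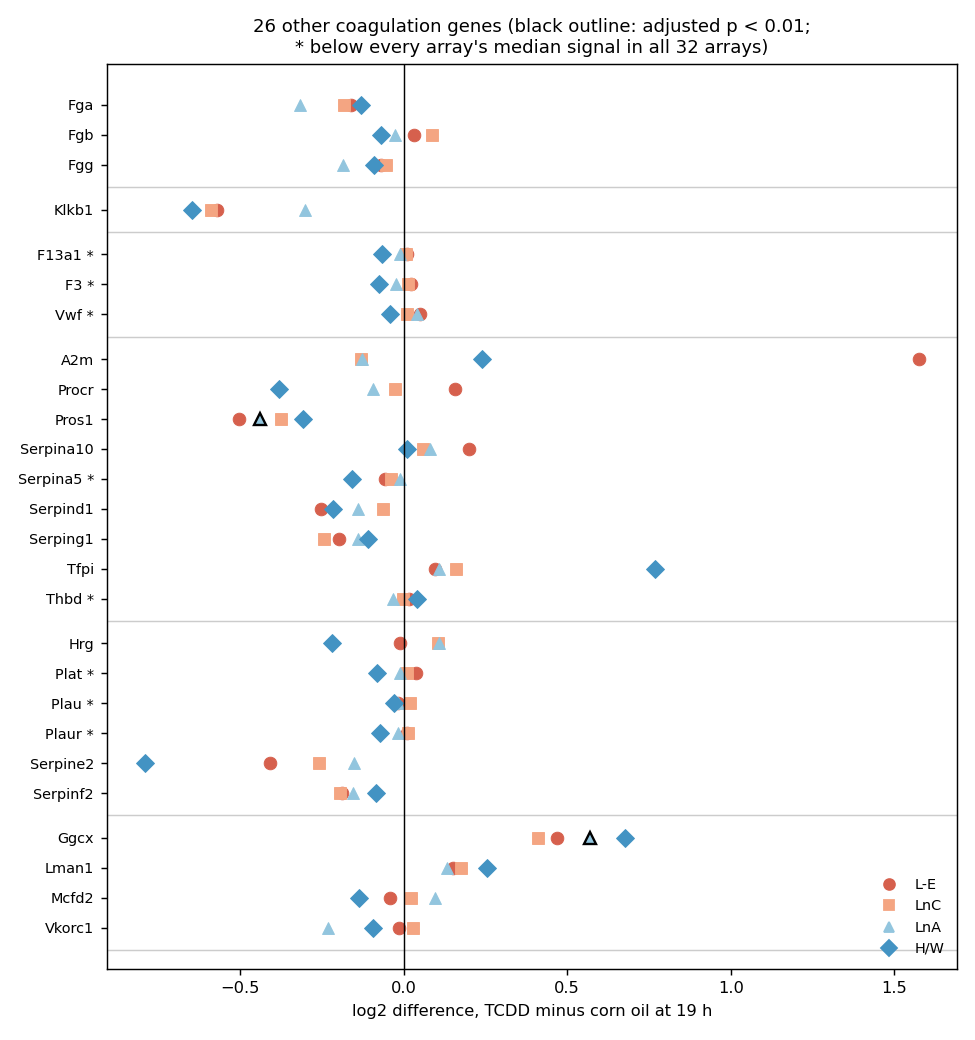
Log2 difference, TCDD minus corn oil at 19 hours, of the 26 other clotting, fibrinolysis and vitamin K genes in the 4 strains and lines, with black outlines for adjusted p under 0.01 and stars for genes below every array's median at 19 hours. Pros1 and Ggcx in LnA are outlined, and most points lie near 0.

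Other groups of the system gave values short of the threshold. Klkb1, plasma prekallikrein of the contact pathway, was at 11.37 ± 0.10 after TCDD in L-E livers, against 11.94 ± 0.16 after corn oil (SD, n = 4), a difference of -0.57 that narrowly missed it (adjusted p = 0.0133, limma). LnC livers gave -0.59 (adjusted p = 0.0796), LnA livers -0.30 (0.670) and H/W livers -0.65 (0.217). Of the 3 fibrinogen chains none was called, the largest difference being that of Fga in LnA (-0.32, adjusted p = 0.406). Among the fibrinolysis genes it was that of Serpine2 in H/W (-0.79, adjusted p = 0.304). Tissue factor (F3), F13a1, Vwf, Serpina5, Thbd, Plat, Plau and Plaur lay below every array's median at 19 hours, so that these arrays say little of them. A2m, the plasma protease inhibitor alpha-2-macroglobulin, ranged between 3.16 and 7.81 after TCDD in L-E rats, against 3.18 to 3.42 after corn oil.

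Markers of other cells were set beside these results as summed linear signals. For the 9 hepatocyte markers measured of 10 listed, sums were 249400 to 286000 after TCDD in L-E rats, against 248100 to 268900 after corn oil, and 273200 to 302300 after TCDD in LnA rats, against 276800 to 290900 after corn oil. For the 3 platelet markers of 8 listed, they were 19.96 to 20.54 after TCDD in L-E, against 19.02 to 20.22 after corn oil. Macrophage markers, 8 of 10, summed to 1840 to 2868 after TCDD in LnC rats, against 2911 to 3359 after corn oil, and Cd14 was the 1 of them called lower. In corn oil rats the macrophage sums were 2384 to 3233 in L-E, against 1575 to 2712 in H/W, and 2911 to 3359 in LnC, against 1275 to 1389 in LnA. Between the corn oil lines 2 of 8 macrophage markers were called higher in LnC and 1 of 9 hepatocyte markers lower, against 0.394% of all genes. In the difference of the 2 corn oil contrasts 1 of 9 hepatocyte markers was called higher, against 0.624%. At 3 hours after TCDD the hepatocyte sums were 275100 to 286100 in L-E, against 246300 to 254800 in H/W, and the macrophage sums 3155 to 4313 in L-E, against 1841 to 2086 in H/W. Neither overlapped, beside the F10 and Cpb2 differences at that time, although no single marker of these lists was called there (7 of 9 and 6 of 8 had an unadjusted p under 0.05, limma). Over all genes, 2.18% were called there and 32.5% did not overlap. An unadjusted p of 0.06797 or less, a wider cutoff than 0.05, was held by 4517 of 10411 genes, so differences between these strains at 3 hours were common. The part of these markers in the coagulation results was not tested.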

How the data were processed

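The 40 arrays were 1 per rat. The deposited values are log2 signals. Per the submitters' processing notes, the authors ran GCRMA (2.4.1), with affy (1.10.0) under R (2.3.1). GCRMA subtracts a background modelled from probe sequence and quantile normalizes. The study's methods describe RMA with another map of probes to genes, which was not repeated. Aldh3a1 and Cyp1b1, low after corn oil, differed by 11.14 and 9.49 in L-E rats here, more than the study reports for them. Scanner output served only for the scan day of each array. No genome build is given in the sources used here for the probe sets.

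Of 15923 probe sets, 57 controls were left out. Of the others, 12783 had 1 gene symbol in the platform annotation, 312 several and 2771 none, and a symbol with several was represented by its brightest probe set on average at 19 hours, giving 10411 genes. Groups were compared with limma 3.58.1 (lmFit and eBayes) in R 4.3.3, within each strain or line for TCDD against corn oil. The fit was over 4 groups for a pair's response, over the 4 corn oil groups for corn oil contrasts and over all 8 groups for the collectives. P-values were adjusted by Benjamini-Hochberg over all genes and called under 0.01, the study's threshold. With 4 arrays a group, their number limits the precision. Intervals are unadjusted 95% intervals from limma.

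Named genes were all measured members, the other pathway genes called after TCDD, otherwise the gene with the largest difference of its list, the AHR check genes, and the 5 genes most correlated with each member called after TCDD. The members and lists were chosen with earlier results of these data known. Same-numbered TCDD and corn oil arrays deviated together in LnA (r 0.12 to 0.16 over 2245 genes with variance above 0.1), though no source states a pairing. The r was also above 0 in L-E (0.07 to 0.29) and H/W (0.01 to 0.15), and ran from -0.26 to 0.09 in LnC. Alternatives were other probe set rules, a filter on the lowest 40% of genes, quantile normalization, median centring, limma's trend, array weights, replicate and scan-day blocks, a joint fit, and each array left out.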

Additional observations from a re-analysis of the deposited data

Results flagged for a closer look

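1 of 60 sets of 4 arrays had a value far from the others, and chance would give about 1 in 20. F2 in L-E livers 19 hours after TCDD was 13.78 in replicate 1, against 14.12 to 14.17 in the other 3. In corn oil L-E rats F2 was also lowest in replicate 1, at 13.98, and both arrays were scanned on the first day.

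The Cpb2 response to TCDD was 0.48 log2 units larger in the sensitive than in the resistant collective, and its interaction test passed the threshold (adjusted p = 0.00205, limma). In corn oil rats, the difference of F5 between L-E and H/W exceeded that between LnC and LnA by 1.002 log2 units (adjusted p = 0.00160, limma), in a test chosen after the data were seen.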

How the results depend on the processing

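No called difference changed sign under any of the 1842 alternatives run for the 84 gene-wise results, of which 11 were called. Calls were lost in 47 and gained in 6, and 52 uncalled values changed sign while staying uncalled. The replicate block lowered the count of called genes among the 6 to 0 for TCDD in L-E and in LnA, for the collectives, for L-E over H/W at 3 hours and for 19 over 3 hours in L-E. Under this block adjusted p was 0.0184 for Cpb2 in L-E, 0.0404 for Cpb2 between collectives, 0.0128 and 0.0327 for F10 and Cpb2 at 3 hours, and 0.0162 and 0.0405 for F5 and Cpb2 between times in L-E. It also took the corn oil difference of Cpb2 to 0.0147. In the 3-hour, time and corn oil comparisons the block joined equal numbers of different strains, lines or times. No source links those arrays, and whether they deviate together was not examined. In L-E and H/W same-numbered arrays at 19 hours also shared a scan day. With their own number, 2 of 4 L-E arrays after TCDD, 1 of LnC, 3 of LnA and 3 of H/W correlated best. Median centring gave 0 calls in LnA and between collectives, and 2 for the F5 and F10 difference of corn oil contrasts. Quantile normalization gave 0 in LnA and 1 at 3 hours. The fit over 8 groups gave 2 in L-E and 1 in LnC. Array weights gave 1 each for the L-E over H/W response (Cpb2), LnC over LnA in corn oil (F10) and 19 over 3 hours in H/W (Plg). The corn oil call of Cpb2 between L-E and H/W was lost with array weights (adjusted p = 0.0160) and quantile normalization (0.0183). With 1 array left out, counts were 0 to 0 in LnA, 1 to 1 at 3 hours, 1 to 2 between times in L-E and 2 to 3 between corn oil strains. In LnA each of the 8 arrays ended the call of F5. The cause was not tested in any of these. Counts over all genes moved too, for example to between 83 and 173 called in L-E with 1 array left out, against 214 with all.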

Other observations

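Outside the comparison with corn oil, 5 pathway genes were called, Pros1 among them again, and are named after their values were seen. Over all genes 2.18% were called between strains at 3 hours, 4.01% and 5.15% between times in L-E and H/W, and 0.394% between corn oil lines. The 3-hour differences hold both strain and TCDD, and time and scan day cannot be told apart. At 3 hours after TCDD, Klkb1 was higher in L-E than in H/W livers by 0.88 (11.72 ± 0.10 against 10.84 ± 0.09, SD, n = 4, adjusted p = 9.99e-04, limma). In corn oil rats Klkb1 was also higher in L-E, by 0.56 without overlap (adjusted p = 0.120, not called). Fga, a fibrinogen chain, was lower in L-E at 3 hours by 0.28 (14.58 ± 0.06 against 14.87 ± 0.05, adjusted p = 0.00855). In corn oil rats Fga was at 14.73 ± 0.17 in L-E, against 14.59 ± 0.16 in H/W. In H/W livers Fga was lower at 19 than at 3 hours after TCDD, by 0.41 (14.46 ± 0.07 against 14.87 ± 0.05, adjusted p = 0.00152), and Pros1 by 0.43 (9.93 ± 0.12 against 10.36 ± 0.07, adjusted p = 0.00590). Serpina10, which with protein Z inhibits activated factor X, was higher at 19 than at 3 hours in L-E livers, by 0.51 (11.61 against 11.10, adjusted p = 0.00408). Hrg, the plasma histidine-rich glycoprotein that binds plasminogen, was lower in corn oil LnC than LnA livers by 0.51 (14.02 against 14.53, adjusted p = 0.00275).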
